A study of Homo sapiens with 8 samples.

Results

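KLE and HEC59 are cell lines grown from human endometrial cancers, and their gene levels were compared with each other. They are the 2 lines labelled endometrial among the 8 cancer lines of the series, and each had 1 RNA sequencing library. KLE is labelled as an endometrial adenocarcinoma at passages p3 to p6, and HEC59 as an endometrial carcinoma at passages p5 to p10. Both were grown as their vendors specify and kept in 6-well plates, and total RNA was extracted after 48 hours, with no drug given in the labels. All 8 lines express ERBB4, a receptor tyrosine kinase, and were chosen around their response to the kinase inhibitor ibrutinib, but the labels do not say which lines respond. The lines come from different tumours and neither was sequenced again, so no difference below has a replicate check and none was tested. Culture, passage, library and tumour cannot be told apart.

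The endometrium is the inner lining of the uterus, formed by glandular epithelium over a stroma, and it derives from the Mullerian duct. Transcription factors such as PAX8, SOX17, EMX2 and the posterior HOX genes mark the epithelia of this duct. Carcinoma cells can keep that program, take on squamous features, or make matrix and contractile proteins usually found in mesenchymal cells.

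The deposited values are FPKM, fragment counts scaled by transcript length and by the number of mapped fragments. A difference here is log2(FPKM + 1) in KLE minus log2(FPKM + 1) in HEC59, so that a positive value means a higher level in KLE. It understates the change of genes with low values. Of 58202 genes in the table, 14805 had an FPKM of 1 or more in either line and were compared, 10929 of them in both. A gene is called higher in a line when the difference reached 3 in its direction. By this rule 453 genes, 3.06% of those compared, were higher in KLE and 241 genes, 1.63%, were higher in HEC59. The counts given for gene lists below are to be read against these shares. Among the 11934 protein-coding genes 378 (3.17%) were higher in KLE and 167 (1.4%) in HEC59, 4.57% in either direction. The median difference was 0.14 over all genes compared, and 9223 genes, 62.3%, lay within 1 of no difference. HEC59 was listed at 0 for 107 of the 453 genes higher in KLE, and KLE was listed at 0 for 88 of the 241 higher in HEC59. The threshold cuts through a continuous range. On the KLE side CYP4B1 (3.004) and PIPOX (3.003) lay just inside it, and SETD7 (2.995) and COX7A1 (2.996) just outside. On the HEC59 side HOXD3 (-3.002) and UGT2B7 (-3.01) were inside, and NTRK2 (-2.99) and GAD1 (-2.98) were outside.

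**Figure D1:**
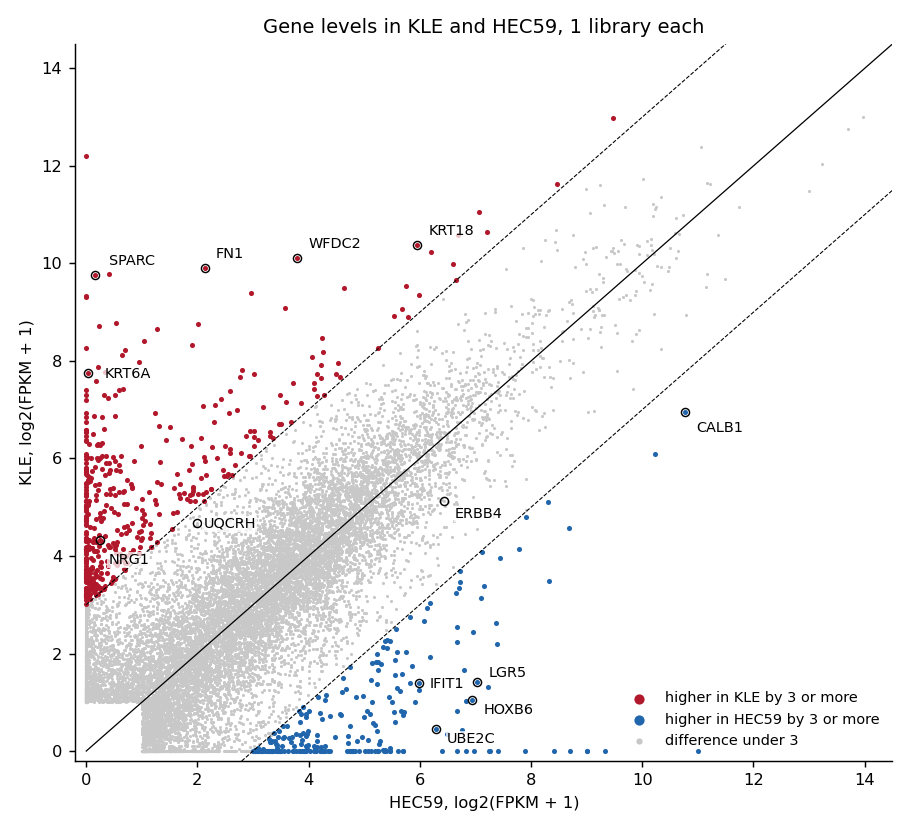
Level of each of the 14805 genes compared in KLE (vertical axis) and HEC59 (horizontal axis), as log2(FPKM + 1) from 1 library each. Dashed lines mark a difference of 3, coloured points lie past it (453 red points higher in KLE, 241 blue points higher in HEC59), and circled genes are named in the text. Many coloured points lie on or near an axis, where the other line is at or close to 0.

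Several properties of the libraries bear on this split. Summed FPKM was 482065 in KLE and 397053 in HEC59, after leaving out AC002066.2, whose value exceeded 100000 in both lines. Mitochondrial genes made up 6.13% of that sum in KLE and 16.1% in HEC59, against 4.37% to 13.1% in the other 6 lines. All 13 mitochondrial messenger RNAs had negative differences, with a median of -1.26, and none passed 3. All 6 ribosomal RNA pseudogenes compared were higher in HEC59. The nuclear housekeeping genes had a median difference of 0.49, and 7 of the 10 had positive differences. With both lines scaled to the same sum without mitochondrial genes, 360 genes were higher in KLE and 297 in HEC59. The share of differing genes that were higher in KLE was then 54.8%, against 65.3% as deposited, and the median difference was -0.23. Upper-quartile scaling and quantile normalization gave shares of 59.9% and 59.6%. Among genes described below with a call, CYP4B1, PIPOX, KRT8, COL5A2, LAMA3, L1CAM, S100A10, ETV5, DKK2 and YIF1B dropped below 3 under at least 1 of these 3 scalings. The steps between the lowest values gave HEC59 an estimated depth of 1.35 times that of KLE by values under 0.1. By values of 0.1 to 0.5 the estimate was 1.54 times. Each estimate is the commonest ratio between the lines, at which 12.5% and 4.43% of the genes used lay. An earlier analysis of these data had divided the series by such steps, and that division was taken over without being derived again. It placed KLE with H522, H661 and H716 and HEC59 with 1321N1, COV318 and H146. The medians of the 3 other lines on each side differed by 3 in the same direction for 14 of the 453 genes higher in KLE (3.09%), against 0.419% of all genes compared, and for 13 of the 241 higher in HEC59 (5.39%), against 1.08% of all genes compared. Genes past 3 are picked for a large spread between lines, so a larger share than among all genes can arise under any division. The opposite direction was not counted, and no conclusion about the steps is drawn from these shares. The part of these library properties in the differences below was not tested.

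Both lines carried epithelial and Mullerian genes. Of 30 genes of epithelial junctions and identity, 20 reached an FPKM of 1 in KLE and 26 in HEC59. CDH1, which encodes E-cadherin, had 102 FPKM in KLE and 33.1 in HEC59, against at most 26.1 in the other 6 lines. EPCAM, an epithelial adhesion molecule, had 122 FPKM in KLE and 299.7 in HEC59. Of 25 Mullerian and endometrial genes, 13 reached 1 in KLE and 15 in HEC59. Immune cell markers were near 0, summing to 2.50 FPKM in KLE and 1.59 in HEC59, with 7 of 14 listed at 0 in each line. Among endothelial markers PECAM1 was listed at 0 in both lines, while ERG, a transcription factor used as an endothelial marker, had 2.57 FPKM in KLE and 36.9 in HEC59.

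Stromal fibroblast and smooth muscle markers differed more. The 15 markers summed to 872 FPKM in KLE and 9.91 in HEC59, against 15.1 to 797 FPKM in the other 6 lines. Of the 8 markers compared, 4 were higher in KLE and 0 in HEC59, with a median of 3.64. Most of the KLE sum came from ACTA2 and TAGLN, which encode actin and an actin-binding protein of smooth muscle. ACTA2 had 434 FPKM in KLE, 3.02 in HEC59 and at most 3.80 in the other 6 lines. The others were COL3A1, a fibrillar collagen given below, and RGS5, a regulator of G protein signalling used as a pericyte marker, with 28.3 FPKM in KLE and 0.490 in HEC59. The remaining 7 of the 15 markers did not reach 1 FPKM in either line. Among them COL1A2 was listed at 0 in both lines, PDGFRA had 0.00965 FPKM in KLE and 0.288 in HEC59, FAP was listed at 0 in KLE and had 0.0271 FPKM in HEC59, and MYH11, the smooth muscle myosin, had 0.223 FPKM in KLE and 0.463 in HEC59. The part of such cells in these levels was not tested. In bulk RNA a few cells with a high level and many cells with a low level cannot be told apart.

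Genes of the extracellular matrix and of contractile cells were among the largest differences. Of 16 mesenchymal genes compared, 5 were higher in KLE and 0 in HEC59, with a median of 1.24. SPARC, a secreted collagen-binding glycoprotein, had 869 FPKM in KLE and 0.117 in HEC59, the largest difference of any protein-coding gene at 9.61. FN1, which encodes fibronectin, had 956 FPKM in KLE and 3.39 in HEC59, a difference of 7.77. The other lines spread between 0.490 and 1001 FPKM for FN1, and KLE lay near the top of that range. TAGLN had 341 FPKM in KLE and 1.05 in HEC59, and CALD1, which encodes the actin-binding caldesmon, had 719 in KLE and 23.9 in HEC59. TNC, the matrix protein tenascin C, had 43.5 FPKM in KLE and 0.175 in HEC59. The transcription factors and filaments that usually accompany a mesenchymal state were not part of this difference. ZEB1, a repressor of epithelial genes, had 3.34 FPKM in KLE and 13.97 in HEC59, SNAI1, another such repressor, had 1.72 in KLE and 1.83 in HEC59, and VIM, which encodes vimentin, had 238 in KLE and 167 in HEC59.

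Of 18 collagen genes, 4 were higher in KLE and 1 in HEC59, with a median of 1.398. COL11A1 had 82.8 FPKM and COL3A1 55.2 FPKM in KLE, and both were listed at 0 in HEC59. COL12A1 had 75.7 FPKM in KLE and 2.70 in HEC59. The exception was COL17A1, the hemidesmosomal collagen of basal epithelium, with 0.619 FPKM in KLE and 14.4 in HEC59. COL1A1, the main fibrillar collagen, was low in both, with 1.04 FPKM in KLE and 3.55 in HEC59. SERPINH1, the collagen chaperone, had 26.0 FPKM in KLE and 0.134 in HEC59, which lay below the other 6 lines (3.56 to 64.5).

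Receptors and anchors of epithelial cells on basement membrane followed the same direction. ITGA3 and ITGB4 encode the alpha and beta chains of different laminin-binding integrins, and LAMA3 encodes a laminin alpha chain. ITGA3 had 133 FPKM in KLE and 3.30 in HEC59, ITGB4 had 148 in KLE and 4.39 in HEC59, and LAMA3 had 15.8 in KLE and 0.733 in HEC59. In all, 3 of 13 integrins and 2 of 9 laminins were higher in KLE and none was higher in HEC59. Among 19 matrix proteases and their inhibitors, 4 were higher in KLE, led by TIMP3, a tissue inhibitor of metalloproteinases, with 76.0 FPKM in KLE and 0.141 in HEC59. MMP10, the metalloproteinase stromelysin-2, ran the other way, with 5.15 FPKM in KLE and 163 in HEC59.

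**Figure D2:**
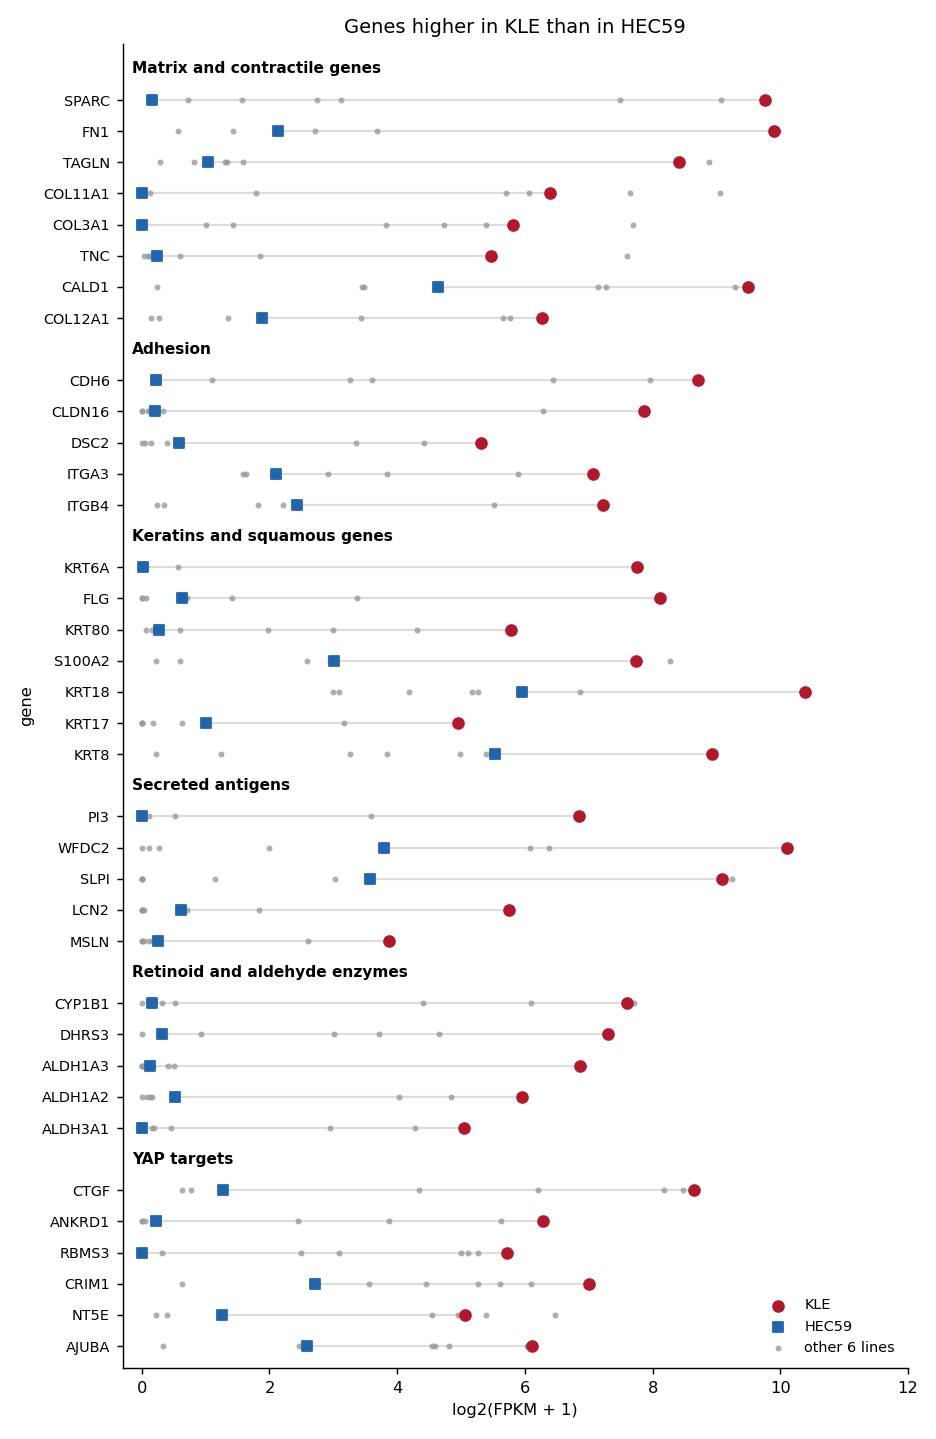
Levels of named genes higher in KLE, grouped by function, as log2(FPKM + 1). Red circles are KLE, blue squares HEC59 and grey points the other 6 lines, 1 library each. For SPARC the KLE value lies above all other lines and the HEC59 value below them, whereas for TAGLN and COL11A1 another line lies above KLE.

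Keratins separated the lines in both the simple and the stratified class. Of 6 simple epithelial keratins compared, 3 were higher in KLE, and the median was 2.64. KRT18 and KRT8 encode the keratin pair of simple epithelia. KRT18 had 1331 FPKM in KLE, 61.1 in HEC59 and at most 115 in the other lines. KRT8 had 486 FPKM in KLE and 45.2 in HEC59, a difference of 3.40. Even the lower of these values lay above the highest of the other lines (40.8) for KRT8. KRT80 had 54.1 FPKM in KLE and 0.210 in HEC59. KRT19 did not pass 3, with 199 FPKM in KLE and 91.6 in HEC59.

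KRT6A, a keratin of stratified and wounded epithelium, had 215 FPKM in KLE and 0.0172 in HEC59, a difference of 7.73. The other 6 lines lay between 0 and 0.487 FPKM, so the gene was high in KLE alone among the 8. Reads of KRT6A may be shared with its near-identical copies KRT6B and KRT6C, neither of which reached 1 FPKM in either line. KRT17 had 29.9 FPKM in KLE and 1.01 in HEC59. Of 10 squamous differentiation genes, 3 were higher in KLE and 1 in HEC59. FLG, which encodes the skin barrier protein filaggrin, had 278 FPKM in KLE and 0.553 in HEC59, against 9.31 or less in the other 6 lines. S100A2, a calcium-binding protein of basal keratinocytes, had 213 FPKM in KLE and 7.09 in HEC59. SFN, which encodes stratifin (14-3-3 sigma), was the exception with 0.223 FPKM in KLE and 12.04 in HEC59. Of 7 kallikrein peptidases, 3 were higher in KLE. KLK10 had 65.2 FPKM in KLE and 0.277 in HEC59, and KLK5 and KLK11 had 14.4 and 16.6 FPKM in KLE and were listed at 0 in HEC59.

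Junction genes were divided between the lines. Among 26 epithelial junction and identity genes, 2 were higher in KLE and 3 in HEC59, and their median difference was -0.01. SPINT2, an inhibitor of epithelial serine proteases, had 1540.3 FPKM in KLE and 102 in HEC59. ST14, which encodes matriptase, a protease that SPINT2 inhibits, was listed at 0 in KLE and had 12.7 FPKM in HEC59. EHF, an epithelial ETS factor, had 50.2 FPKM in KLE and 2.11 in HEC59. GRHL2, a transcription factor that maintains epithelial junctions, had 0.165 FPKM in KLE and 32.6 in HEC59, and did not exceed 2.81 in the other lines. ESRP2, an epithelial splicing regulator, had 0.0745 FPKM in KLE and 10.5 in HEC59. Its relative ESRP1 was nearer, with 3.37 FPKM in KLE and 9.89 in HEC59, and DSP, which encodes desmoplakin, had 98.4 in KLE and 72.8 in HEC59.

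Adhesion molecules were mostly on the KLE side, with 3 of 9 claudins and 4 of 14 cadherins higher there and none higher in HEC59. CDH6, a cadherin of the kidney and the ovary, had 420.3 FPKM in KLE, 0.165 in HEC59 and 0.128 to 249 in the others. CLDN16, a tight junction protein first known from the kidney, had 233 FPKM in KLE and 0.154 in HEC59. CLDN1 had 187 FPKM in KLE and 16.04 in HEC59. CDH2, which encodes N-cadherin, had 209 FPKM in KLE and 66.1 in HEC59 and did not pass 3.

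The Mullerian list did not move as a block. Of 17 genes compared, 3 were higher in KLE and 1 in HEC59, and the median was -1.66. WFDC2, which encodes the serum tumour marker HE4, had 1102 FPKM in KLE, 12.8 in HEC59 and at most 81.8 in the other lines. WT1, a zinc finger factor of the urogenital ridge, had 28.7 FPKM in KLE and 0.408 in HEC59. EMX2 had 34.8 FPKM in KLE and 8.72 in HEC59, whereas PAX8 had 45.7 in KLE and 185 in HEC59, and SOX17 had 10.3 in KLE and 56.1 in HEC59. Estrogen and progesterone receptors did not reach 1 FPKM in either line. ESR1 had 0.507 FPKM in KLE and was listed at 0 in HEC59, and PGR was listed at 0 in KLE and had 0.787 FPKM in HEC59. Of 10 steroid receptor and target genes compared, none passed 3.

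Other secreted or surface tumour antigens were higher in KLE, 6 of 16 including WFDC2 and MSLN. SLPI and PI3, both small secreted protease inhibitors, had 540.4 and 114 FPKM in KLE, while SLPI had 10.9 FPKM in HEC59 and PI3 was listed at 0. LCN2, an iron-binding lipocalin, had 52.9 FPKM in KLE and 0.528 in HEC59. L1CAM, an adhesion molecule used as a marker of aggressive endometrial cancer, had 50.2 FPKM in KLE and 4.88 in HEC59. Its difference of 3.12 was 2.72 to 2.98 under the 3 other scalings.

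HOX genes, which set position along the body axis and the reproductive tract, lay on the HEC59 side. Of 28 compared, 0 were higher in KLE and 10 were higher in HEC59, with a median of -1.76. The 10 came from the HOXB and HOXD clusters. HOXB6 had 1.07 FPKM in KLE, 122 in HEC59 and at most 8.72 in the other lines. HOXB9 had 0.760 FPKM in KLE, 101 in HEC59 and no more than 7.23 in the other lines. HOXB2 and HOXD10 were listed at 0 in KLE and had 25.7 and 20.003 FPKM in HEC59. Genes of the HOXA cluster differed less, HOXA9 with 5.50 FPKM in KLE and 18.1 in HEC59 and HOXA10 with 5.30 in KLE and 18.9 in HEC59. HOXA7 ran the other way, with 41.5 FPKM in KLE and 10.9 in HEC59. HOXC10, with 3.83 FPKM in KLE and 0.0348 in HEC59, had the largest difference of the HOXC cluster at 2.22. MEIS1, a cofactor of HOX proteins, had 11.9 FPKM in KLE and 105 in HEC59.

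Among 39 other lineage transcription factors, 1 was higher in KLE and 7 were higher in HEC59. SALL1, a zinc finger factor of kidney development, had 0.0131 FPKM in KLE and 39.6 in HEC59. MECOM, which encodes the zinc finger factor EVI1, had 3.59 FPKM in KLE and 167 in HEC59. DLX5 and DLX6 are neighbouring homeobox genes. DLX5 had 1.62 FPKM in KLE and 55.4 in HEC59, and DLX6 was listed at 0 in KLE and had 31.3 FPKM in HEC59.

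**Figure D3:**
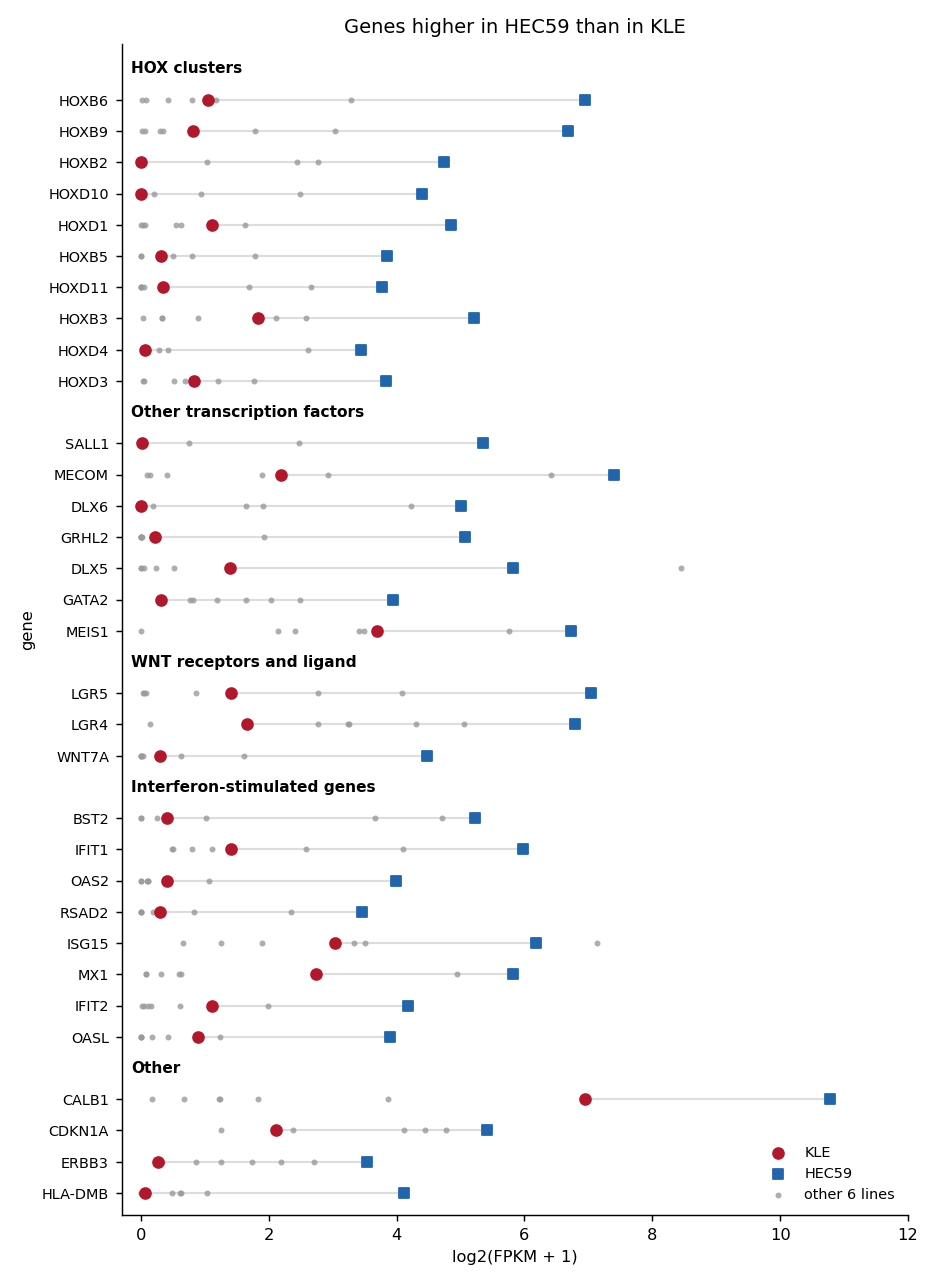
Levels of named genes higher in HEC59, grouped by function, as log2(FPKM + 1). Red circles are KLE, blue squares HEC59 and grey points the other 6 lines, 1 library each. HEC59 lies to the right of every other line for all 10 HOX genes shown, and for DLX5 and ISG15 another line lies above it.

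WNT signalling components differed in both directions. Of 28 ligands, receptors and antagonists, 3 were higher in KLE and 3 in HEC59. LGR5 and LGR4 encode receptors for R-spondins, which amplify WNT signals, and LGR5 marks stem cells of several epithelia. LGR5 had 1.67 FPKM in KLE and 129.96 in HEC59, and LGR4 had 2.17 in KLE and 109.9 in HEC59. WNT7A, a WNT ligand required for Mullerian duct patterning in the mouse, had 0.228 FPKM in KLE and 21.2 in HEC59. In KLE the higher genes were WNT2B, another ligand (17.0 FPKM in KLE and 0.0719 in HEC59), ROR1, a WNT5A receptor (16.5 FPKM in KLE and 0.255 in HEC59), and DKK2, an antagonist (8.97 FPKM in KLE and 0.231 in HEC59). Of 12 genes compared on a list of beta-catenin targets, BMP4 was higher in KLE and none was higher in HEC59. The outcome depends on the list, which did not hold LGR5.

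In the ERBB family NRG1 and ERBB3 differed past 3, in opposite directions. NRG1, a neuregulin that binds ERBB3 and ERBB4, had 19.2 FPKM in KLE and 0.185 in HEC59, below the 0.558 to 81.9 of the other lines. ERBB3, its kinase-impaired receptor, had 0.205 FPKM in KLE and 10.7 in HEC59, against 0.260 to 5.55 elsewhere. KLE therefore had the lowest ERBB3 of the 8 lines and HEC59 the lowest NRG1. ERBB4 had 33.8 FPKM in KLE and 85.3 in HEC59, EGFR had 32.4 in KLE and 11.004 in HEC59, and ERBB2 had 11.5 in KLE and 14.96 in HEC59, none past 3. AREG, an EGFR ligand, had 0.859 FPKM in KLE and 10.9 in HEC59, a difference of -2.67. Of the 7 ligands compared, 1 was higher in KLE and 0 in HEC59.

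Of 23 other receptor tyrosine kinases, 3 were higher in KLE, all of them ephrin receptors. EPHA7 had 114 FPKM in KLE and 0.215 in HEC59, EPHA2 had 37.8 in KLE and 2.73 in HEC59, and EPHA3 had 44.4 FPKM in KLE and was listed at 0 in HEC59. Of 19 genes that respond to MAPK signalling, 2 were higher in KLE and 1 in HEC59. ETV5 had 57.1 FPKM in KLE and 5.40 in HEC59, and ETV1 had 13.9 in KLE and 0.295 in HEC59. EGR1, an immediate early transcription factor, had 7.76 FPKM in KLE and 137 in HEC59. SYK, a cytoplasmic tyrosine kinase of immune and epithelial cells, had 11.5 FPKM in KLE and 0.0485 in HEC59. LYN, a SRC family kinase, had 0.785 FPKM in KLE and 10.9 in HEC59 and did not pass 3. SYK belongs to neither the SRC nor the TEC family but was on the list of those kinases. Of the 9 genes of that list compared, SYK alone passed 3, so no SRC or TEC family kinase did.

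Targets of YAP and TEAD, the coactivator and DNA-binding factor at the end of the Hippo pathway, included 6 of 21 genes higher in KLE and none higher in HEC59, with a median of 1.06. The promoters of CTGF and ANKRD1 are shown because these targets had the largest differences. They are the 250 bases before the gene start on the gene's strand, from RefSeq on GRCh38.p14, with the TEAD motif GGAATG in capitals (searched on both strands as GGAATG and CATTCC). CTGF, listed there as CCN2, lies at chr6:131951373-131951622 on the minus strand and ANKRD1 at chr10:90921088-90921337 on the minus strand.
CTGF: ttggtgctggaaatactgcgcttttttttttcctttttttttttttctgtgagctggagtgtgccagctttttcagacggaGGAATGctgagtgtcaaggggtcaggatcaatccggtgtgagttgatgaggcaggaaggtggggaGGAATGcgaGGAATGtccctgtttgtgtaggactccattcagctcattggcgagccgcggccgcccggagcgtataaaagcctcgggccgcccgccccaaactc
ANKRD1: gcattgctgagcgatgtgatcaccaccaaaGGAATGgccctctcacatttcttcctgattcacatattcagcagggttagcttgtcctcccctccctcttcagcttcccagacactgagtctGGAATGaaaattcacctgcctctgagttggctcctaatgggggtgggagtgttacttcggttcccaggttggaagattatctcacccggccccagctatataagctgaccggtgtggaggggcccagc
The CTGF window held 3 matches and the ANKRD1 window 2, none of them overlapping. Of the 6 targets higher in KLE, 5 had a window, and RBMS3, AJUBA and NT5E held no match. A match occurred in 9.22% of 9785 windows of protein-coding genes compared, in 12.97% of those of genes higher in KLE and in 17.1% of those of genes higher in HEC59. It describes letters in a window, not binding. CTGF, a secreted matricellular protein, had 401 FPKM in KLE and 1.41 in HEC59, a difference of 7.38. The other lines lay between 0.544 and 357 FPKM, below KLE. ANKRD1, a nuclear cofactor, had 77.2 FPKM in KLE and 0.163 in HEC59. RBMS3 had 52.0 FPKM in KLE and was listed at 0 in HEC59, and AJUBA, a LIM protein of adherens junctions, had 67.9 in KLE and 5.03 in HEC59. CYR61, another matricellular target, did not pass 3, with 67.6 FPKM in KLE and 21.2 in HEC59. F3, the tissue factor gene, had 18.3 FPKM in KLE and 66.9 in HEC59.

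Interferon-stimulated genes lay on the HEC59 side. Of 43 compared, 1 was higher in KLE and 8 were higher in HEC59, with a median of -1.22. Of the 8, 5 had a promoter window, and the 3 windows that held the interferon response motif are shown. They are printed with the motif, GAAANNGAAA, in capitals (both strands, so that the reverse reads TTTCNNTTTC), in the same windows and build. IFIT1 lies at chr10:89392373-89392622 on the plus strand, ISG15 at chr1:1013247-1013496 on the plus strand and BST2 at chr19:17405631-17405880 on the minus strand.
IFIT1: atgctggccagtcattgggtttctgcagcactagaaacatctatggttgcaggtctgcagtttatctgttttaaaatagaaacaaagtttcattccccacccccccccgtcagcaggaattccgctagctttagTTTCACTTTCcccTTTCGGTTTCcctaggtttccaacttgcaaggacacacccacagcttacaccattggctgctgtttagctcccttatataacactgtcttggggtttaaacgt
ISG15: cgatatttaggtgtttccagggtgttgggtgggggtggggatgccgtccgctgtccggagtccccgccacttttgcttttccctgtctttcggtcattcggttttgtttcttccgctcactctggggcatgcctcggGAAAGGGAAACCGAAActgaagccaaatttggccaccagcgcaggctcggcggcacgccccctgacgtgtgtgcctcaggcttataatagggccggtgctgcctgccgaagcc
BST2: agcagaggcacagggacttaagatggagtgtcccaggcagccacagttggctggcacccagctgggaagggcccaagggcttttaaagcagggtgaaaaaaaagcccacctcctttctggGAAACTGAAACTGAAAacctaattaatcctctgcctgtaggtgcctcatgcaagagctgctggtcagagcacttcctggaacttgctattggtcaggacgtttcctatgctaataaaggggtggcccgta
Each window held 2 matches, which overlapped each other in ISG15 and BST2. MX1 and RSAD2, also higher in HEC59, held no match, and IFI27, higher in KLE, held 2. The motif occurred in 2.32% of the 9785 windows and in 20 of 33 windows (60.6%) of the interferon-stimulated genes compared, whatever their difference. BST2, a membrane tether of enveloped virus particles, had 0.327 FPKM in KLE and 36.5 in HEC59. IFIT1, which binds viral RNA, had 1.64 FPKM in KLE and 62.1 in HEC59, above the 0.395 to 16.2 of the other lines. ISG15, a ubiquitin-like modifier, had 7.16 FPKM in KLE and 71.8 in HEC59, and another line reached 139. MX1, an antiviral GTPase, had 5.70 FPKM in KLE and 55.5 in HEC59, and OAS2, which senses double-stranded RNA, had 0.324 in KLE and 14.9 in HEC59. The exception was IFI27, with 15.5 FPKM in KLE and 0.527 in HEC59.

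Class I antigen presentation genes did not follow the interferon-stimulated genes, while 2 class II genes lay on the HEC59 side. Of 17 class I and processing genes, 1 was higher in KLE and 0 in HEC59, with a median of 1.27. PSMB8, an immunoproteasome subunit, had 26.5 FPKM in KLE and 0.229 in HEC59. B2M, the class I light chain, had 182 FPKM in KLE and 40.2 in HEC59. HLA genes share sequence, so their reads may be divided among relatives. Of 13 class II genes, 3 were compared, and 0 were higher in KLE and 2 in HEC59. The remaining gene compared had a positive difference of 1.75. HLA-DMA and HLA-DMB encode the exchange factor that loads class II molecules. HLA-DMA had 0.772 FPKM in KLE and 15.2 in HEC59, and HLA-DMB had 0.0415 in KLE and 16.4 in HEC59. The class II molecule HLA-DRA itself was listed at 0 in both lines. Of 17 cytokines and chemokines, 2 were higher in KLE and 1 in HEC59. CCL2, a monocyte attractant, had 167 FPKM in KLE and was listed at 0 in HEC59, and CXCL8, a neutrophil attractant, had 18.9 in KLE and 0.0241 in HEC59. MDK, the growth factor midkine, had 33.7 FPKM in KLE and 313 in HEC59.

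Enzymes of retinoid, aldehyde and drug metabolism included 6 of 27 higher in KLE and 2 higher in HEC59. ALDH1A3 and ALDH1A2 make retinoic acid. ALDH1A3 had 116 FPKM in KLE and 0.0982 in HEC59 and did not exceed 0.420 in the other lines. ALDH1A2 had 61.1 FPKM in KLE and 0.430 in HEC59. DHRS3, which reduces retinal to retinol, had 158 FPKM in KLE and 0.241 in HEC59. CYP1B1, which hydroxylates estradiol and aromatic hydrocarbons, had 193 FPKM in KLE and 0.122 in HEC59. SULT1A1, a phenol sulfotransferase, was listed at 0 in KLE and had 10.3 FPKM in HEC59. UGT2B7, a glucuronosyltransferase with close relatives, had 0.297 FPKM in KLE and 9.43 in HEC59.

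Calcium-binding genes differed in both directions. Of 12 genes compared on a list of S100, calbindin and other calcium-binding genes, 4 were higher in KLE and 2 in HEC59. The 2 were CALB1 and RCN3, and RCN3 is neither an S100 nor a calbindin gene. CALB1, which encodes calbindin, had 122 FPKM in KLE and 1752 in HEC59, and at most 13.5 in the other lines, so both endometrial lines lay above the rest while differing by -3.83. S100A14 had 17.5 FPKM in KLE and 0.176 in HEC59, and S100A10, the partner of annexin A2, had 3183 in KLE and 354 in HEC59. The S100A10 difference of 3.16 was 2.54 to 2.92 under the 3 other scalings. RCN3, a calcium-binding protein of the endoplasmic reticulum, had 0.291 FPKM in KLE and 13.9 in HEC59.

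UQCRH, the hinge subunit of respiratory complex III, had 24.7 FPKM in KLE and 2.97 in HEC59. Its difference of 2.69 did not reach 3. Both values lay below the 147 to 401 FPKM of the other 6 lines. Of 15 complex III genes, none passed 3 and the median was 0.01. UQCRFS1, the iron-sulfur subunit, had 116 FPKM in KLE and 21.4 in HEC59. None of 67 other nuclear respiratory genes passed 3.

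Proliferation genes showed little difference, with 0 of 21 past 3 and a median of -0.14. MKI67 had 20.1 FPKM in KLE and 39.0 in HEC59, and TOP2A had 179 in KLE and 192 in HEC59. UBE2C, a ubiquitin-conjugating enzyme of mitotic exit that was not on that list, had 0.374 FPKM in KLE, 77.0 in HEC59 and 48.4 to 257 in the other lines. Cell cycle and endometrial cancer genes included 4 of 37 higher in KLE (10.8%) and 1 higher in HEC59 (2.70%). Over all genes compared the shares were 3.06% and 1.63%. The count higher in KLE dropped to 1 with both lines scaled to the same sum without mitochondrial genes. CDK6, a G1 kinase, had 63.3 FPKM in KLE and 0.0672 in HEC59, the lowest of the 8 lines. CDKN1A, which encodes the inhibitor p21, had 3.32 FPKM in KLE and 41.6 in HEC59.

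Smaller lists held further differences, against 3.06% of all genes compared higher in KLE and 1.63% higher in HEC59. Of 14 genes of the insulin-like growth factor system, 3 were higher in KLE, led by IGFBP4, a binding protein with 91.8 FPKM in KLE and listed at 0 in HEC59. Of 38 TGF-beta and BMP genes, 2 were higher in KLE, among them BMP4 with 22.7 FPKM in KLE and 0.0963 in HEC59. Of 12 neuronal and neuroendocrine genes, 3 were higher in KLE, and UCHL1, a neuronal ubiquitin hydrolase, had 670.0 FPKM in KLE and 6.77 in HEC59. The other lines had 224 to 1117 FPKM of UCHL1, so HEC59 lay below them all. Of 7 cancer-testis antigens, 3 were higher in KLE, with SSX1 at 21.4 FPKM in KLE and listed at 0 in HEC59. Among 21 imprinted genes, 1 was higher in KLE and 3 were higher in HEC59. MEST had 0.615 FPKM in KLE and 30.9 in HEC59, and SNRPN was listed at 0 in KLE and had 7.205 FPKM in HEC59. SNURF overlaps SNRPN, and without strand their reads cannot be told apart. None of 24 BCL2 family and death regulators passed 3.

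**Figure D4:**
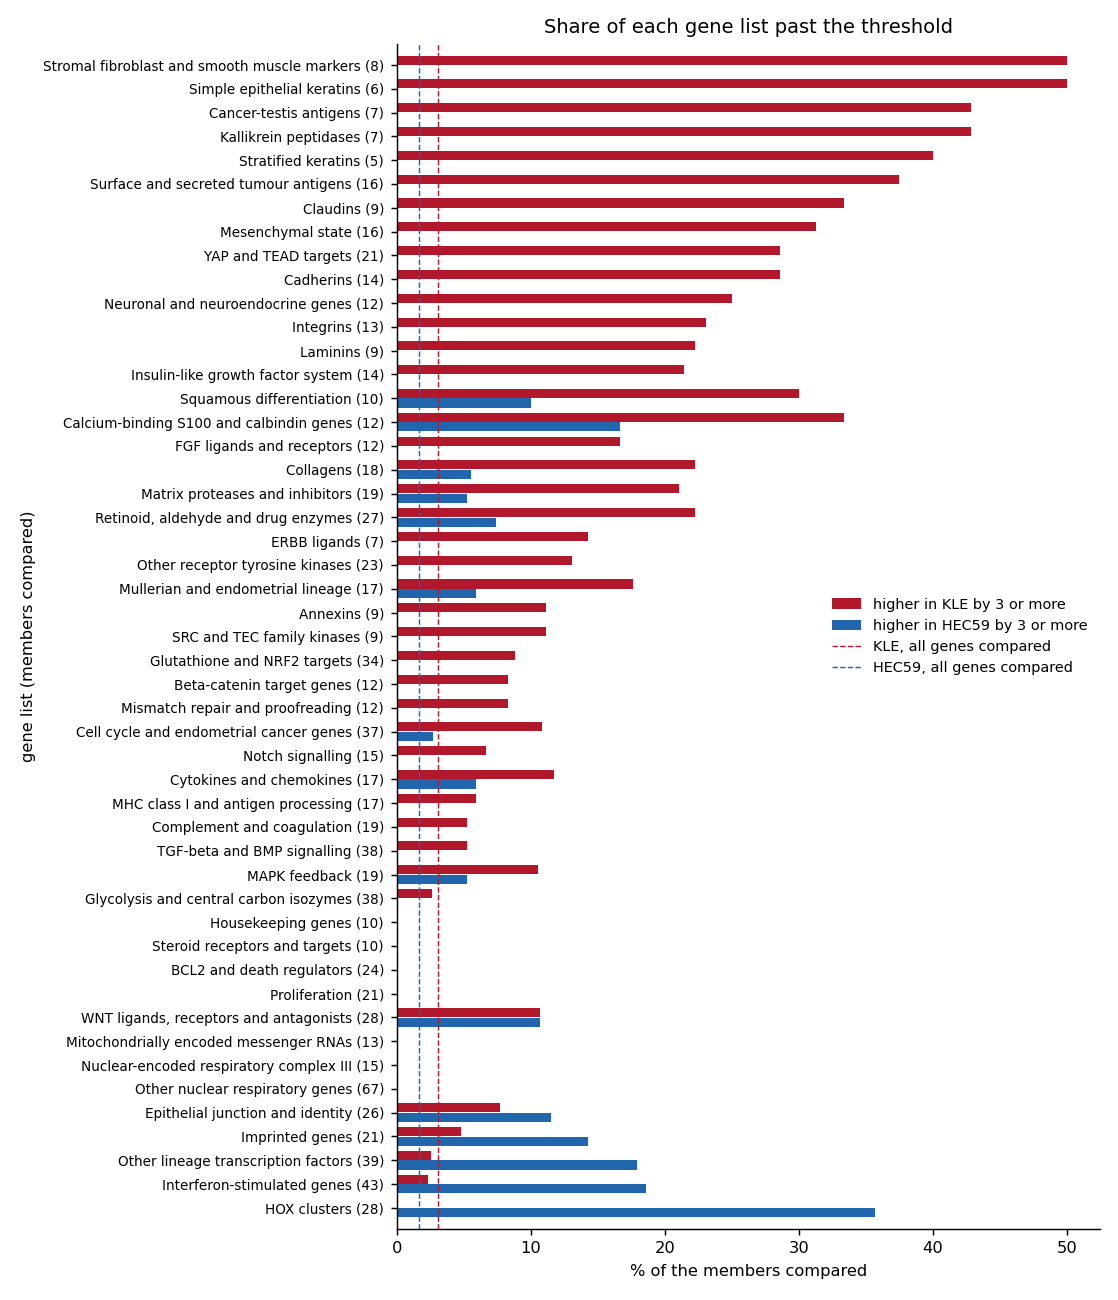
Share of the members compared in each gene list that were higher in KLE (red bars) or in HEC59 (blue bars) by 3 or more, with the number of members compared in brackets. Dashed lines mark the shares over all genes compared, 3.06% higher in KLE and 1.63% higher in HEC59. Among the lists drawn, those with 5 or more members compared, HOX genes have the largest share higher in HEC59 (35.7%), and simple epithelial keratins and the stromal and smooth muscle markers have the largest share higher in KLE (3 of 6 and 4 of 8).

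Large families were read against the protein-coding shares of 3.17% higher in KLE and 1.4% higher in HEC59. Of 213 solute carriers, 10 were higher in KLE (4.69%) and 4 in HEC59 (1.88%). SLC7A5, a carrier of large neutral amino acids, had 213 FPKM in KLE and 16.8 in HEC59. SLC12A3, the sodium chloride cotransporter of the kidney, had 0.274 FPKM in KLE and 89.3 in HEC59. Of 390 zinc finger genes named ZNF, 1 was higher in KLE (0.256%) and 6 were higher in HEC59 (1.54%), and of 163 TMEM genes 0 were higher in KLE and 2 in HEC59 (1.23%). TMEM252 was listed at 0 in KLE and had 112 FPKM in HEC59, against at most 0.159 in the other lines. Of 79 ribosomal protein genes, 1 passed 3 in each direction (1.27%). RPS16 had 8137 FPKM in KLE and 709.6 in HEC59, and RPL22L1 had 9.41 in KLE and 141 in HEC59.

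The place of each line among the other 6 was counted for the genes past the threshold. KLE lay above all other 6 lines for 267 of the 453 genes higher in KLE (58.9%), and HEC59 lay below all 6 for 111 (24.5%), with both true for 43. HEC59 lay above all 6 for 173 of the 241 genes higher in HEC59 (71.8%), and KLE lay below all 6 for 31 (12.9%), with both true for 11. The rule favours the above counts, because it picks genes with a high value in that line. The below counts are held down, because a line listed at 0 cannot lie below another line at 0. The counts therefore do not show which line stood apart. A strict case is a gene under 1 FPKM in a single line and at 10 or more in the other 7. KLE had 6 such genes, among them UBE2C, PARVA, an actin-binding adhesion protein with 0.0754 FPKM in KLE and 14.53 in HEC59, and IFI30, a lysosomal thiol reductase with 0.432 in KLE and 25.9 in HEC59. HEC59 also had 6, among them PLP2, a membrane protein with 217 FPKM in KLE and 0.262 in HEC59, NFIB, a transcription factor with 117 in KLE and 0.433 in HEC59, and GULP1, an engulfment adaptor with 157 in KLE and 0.426 in HEC59. Those of KLE also included HIST1H1B and HIST1H2AL, replication-dependent histone genes that dividing cells use. HIST1H1B was listed at 0 in KLE and had 42.9 FPKM in HEC59, and HIST1H2AL was listed at 0 in KLE and had 101 in HEC59. Whether a value of 0 in these files means that a transcript was absent was not tested. The other lines had between 1 and 27 such genes.

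Some differing genes were neighbours. In the order of protein-coding genes compared, RASSF8, BHLHE41 and SSPN followed each other on chromosome 12 and all were higher in KLE, each above the other 7 lines. RASSF8, a protein with a RAS association domain, had 318 FPKM in KLE and 2.72 in HEC59. BHLHE41, a clock repressor, had 64.4 FPKM in KLE and 0.0100 in HEC59, and SSPN, a dystrophin complex protein, had 50.2 FPKM in KLE and was listed at 0 in HEC59. On chromosome 17 the run was HOXB2, HOXB3, HOXB5 and HOXB6, higher in HEC59, and on chromosome 2 it was HOXD3, HOXD4 and HOXD1. Further runs higher in KLE were GULP1, COL3A1 and COL5A2 on chromosome 2 and P3H2, CLDN1 and CLDN16 on chromosome 3. On chromosome 19 the run of CTB-102L5.4, C19orf33 and YIF1B holds genes that may share reads because strand is not given.

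The distance between the endometrial lines was set beside that of all 28 pairs of the 8 lines. KLE and HEC59 differed by 3 or more in 4.69% of genes compared, the fifth lowest share. KLE and COV318, an ovarian line, had the lowest at 2.72%, and HEC59 and COV318 had 4.03%. The highest share was 7.47% for 1321N1 and H146. Spearman's rho across genes, which are not independent replicates, was 0.704 for KLE with HEC59, 0.796 for KLE with COV318 and 0.732 for HEC59 with COV318.

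**Figure D5:**
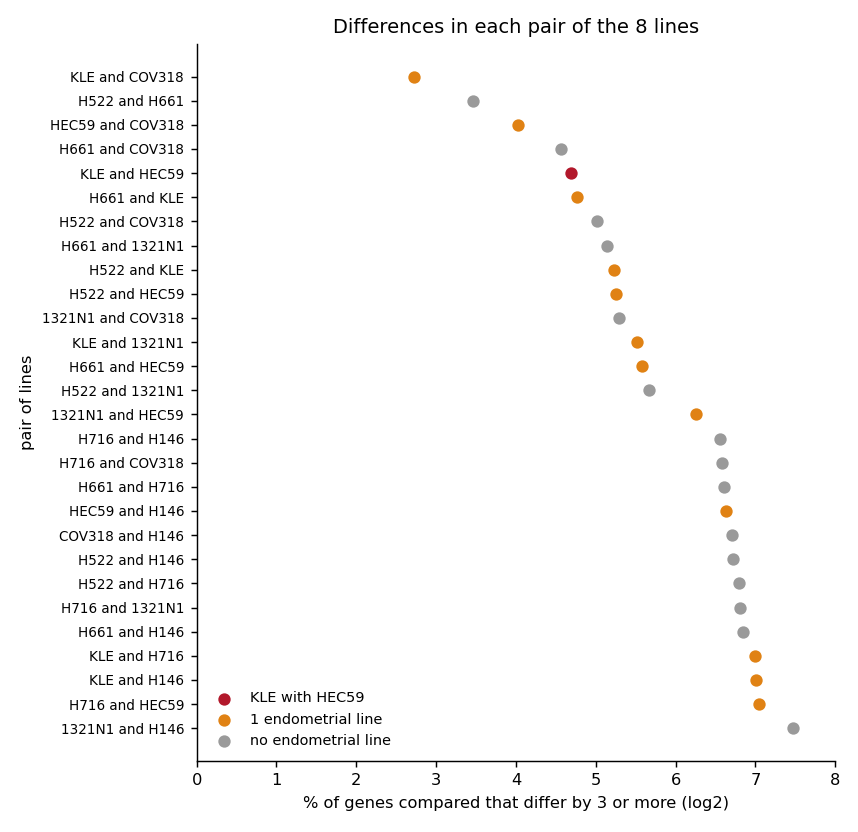
Share of genes compared that differed by 3 or more in each of the 28 pairs of lines, with KLE and HEC59 in red, pairs holding 1 endometrial line in orange and other pairs in grey. KLE and HEC59 lie at 4.69%, and each of them lies nearer to COV318, KLE at 2.72% and HEC59 at 4.03%.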

How the data were processed

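RNA was sequenced from 8 cell lines with 1 library each. The authors deposited FPKM values for 58202 Ensembl identifiers, per the file headers, each with a symbol. CASAVA 1.4, TopHat2 2.0.8, SAMtools 1.0 and GRCh37 are named in the submitters' processing notes. Which program made the FPKM values, with which annotation and strand setting, remains not given in the sources used here. The values carry no read totals, so depth could only be estimated between lines and counting intervals are left out.

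KLE and HEC59 were compared as log2(FPKM + 1), for genes that reached an FPKM of 1 in either line and without values above 100000. A difference of 3 was the threshold. Lines are not replicates, so there is no test, p-value or paired fit. Gene types and neighbour order came from GENCODE release 29, which held 47833 identifiers (82.2%), without coordinates. Its build differs from that of the FPKM table. Promoter windows came from RefSeq on GRCh38.p14.

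The lines, the 53 gene lists and 10 families were chosen with earlier results of these data known. Named are the 4 marker genes given for this comparison (NRG1, KRT6A, CALB1 and UQCRH), the ERBB family, the 20 protein-coding genes of largest difference in each direction, up to 8 list members past 3 and up to 3 near 0, and genes at the threshold or in runs of neighbours. Other members (such as CDH1, PAX8, LYN, HOXA7, ZEB1 and AREG), genes low in 1 line and defining markers were added after their values were seen. Python 3.11.15, pandas 2.3.3 and NumPy 2.4.6 were used, and the counting was tested on simulated data. Alternative pseudocounts, filters, scalings and thresholds were tried. Some genes that met these rules are not reported here.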

Additional observations from a re-analysis of the deposited data

How the results depend on the processing

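No gene counted as higher in either line turned to the other direction under any alternative tried. A change of pseudocount, filter or threshold cannot turn a direction, and the scalings moved the median far less than the threshold. With a pseudocount of 0.1, 1377 genes were higher in KLE and 879 in HEC59, and with a pseudocount of 5, 161 were higher in KLE and 68 in HEC59. A threshold of 2 gave 1056 genes for KLE and 611 for HEC59, and a threshold of 4 gave 207 for KLE and 105 for HEC59. Upper-quartile scaling gave 401 genes for KLE and 268 for HEC59 with a median difference of -0.07, quantile normalization gave 423 for KLE and 287 for HEC59 with -0.06, and the same sum without mitochondrial genes gave 360 for KLE and 297 for HEC59 with -0.23. The 241 genes higher in HEC59 as deposited stayed past the threshold under all 3 scalings. Upper-quartile scaling and the same sum could not have dropped them, because both lower the KLE values and raise the HEC59 values. Filtering at an FPKM of 5, or not at all, cannot move the counts at this threshold. Of 310 genes that met the rules for naming, 14 dropped below 3 under upper-quartile scaling, 8 under quantile normalization, 24 under the same sum and 102 with a pseudocount of 5. The median of 11 of 62 lists and families changed sign under a scaling, among them complex III, cell cycle genes, beta-catenin targets, BCL2 regulators, solute carriers and TMEM genes. Under the same sum, counts higher in KLE dropped from 4 to 1 for cell cycle genes, from 4 to 2 for matrix proteases and for S100 genes and from 2 to 1 for laminins and for TGF-beta genes. No paired analysis was possible because each line had 1 library, and for the same reason no replicate could be left out. HEC59 was the deeper library by the estimate from low values alone, and genes listed at 0 in either line have no lower limit here because read totals are unknown.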

Other observations

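Beyond protein-coding genes, the largest differences belonged to short RNAs, for which FPKM divides by a small length. RNU6-36, a U6 small nuclear RNA copy, had 4723 FPKM in KLE and was listed at 0 in HEC59 and in the other 6 lines. RNU6-69 was listed at 0 in KLE and the other 6 lines and had 2052 FPKM in HEC59. Of 22 small nuclear RNA genes compared, 4 were higher in KLE and 8 in HEC59, and of 424 long intergenic RNA genes, 11 were higher in KLE and 16 in HEC59, against 3.06% of all genes compared higher in KLE and 1.63% higher in HEC59. UCA1, a long noncoding RNA first described in bladder cancer, had 0.0695 FPKM in KLE, 16.1 in HEC59 and at most 0.128 in the other lines. LINC01133 had 31.6 FPKM in KLE and was listed at 0 in HEC59. These RNAs were picked after their values were seen.

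By chromosome, the median difference of protein-coding genes compared ranged from -0.37 on chromosome 22 to 1.08 on chromosome 21 among the nuclear chromosomes. Chromosome 4 had a median of 0.76, with 32 of 464 genes higher in KLE and 9 higher in HEC59, chromosome 20 had 0.73, with 14 of 317 higher in KLE and 1 in HEC59, and chromosome X had 0.89, with 19 of 401 higher in KLE and 1 in HEC59. Over all protein-coding genes compared the shares were 3.17% higher in KLE and 1.4% higher in HEC59. On chromosome 17, which holds the HOXB run, the median was -0.25, with 14 of 676 genes higher in KLE and 10 in HEC59.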
